A study of Mus musculus with 4 samples.

Results

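Integrins, laminins and nidogens, the receptors and building blocks through which cells hold on to their matrix, were examined in cultured mammary fibroblasts with and without *Ets2*. A list of 36 genes was used, and each gene was read from the probe set that carried its symbol alone and had the highest mean over the arrays. Of these, 35 were measured, among 18194 genes on the arrays, and *Itga11* had no such probe set. The measured genes were 7 leukocyte and platelet integrins, 6 epithelial integrins, 10 fibroblast and other mesenchymal integrins, 5 laminin alpha chains, 5 laminin beta and gamma chains and 2 nidogens.

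Total RNA came from second-passage fibroblasts of mammary glands of female FVB/N mice at 16 weeks of age, and each of the 4 genotypes had 1 array. The normal fibroblasts with *Ets2* came from Ets2db/loxP mice and normal *Ets2* null fibroblasts from FspCre;Ets2db/loxP mice. *ErbB2* tumor fibroblasts with *Ets2* came from ErbB2;Ets2db/loxP mice and *ErbB2* tumor *Ets2* null fibroblasts from ErbB2;Fsp-cre;Ets2db/loxP mice. Every group carried the db allele, a conventional knockout of the DNA-binding domain, so the fibroblasts with *Ets2* had a single working copy. Cre was driven by the *Fsp* promoter and the oncogene by the MMTV promoter in the epithelium. The *ErbB2* glands were taken shortly before tumors could be felt, so tumor fibroblasts here are fibroblasts of such glands. Whether RNA of several mice was pooled is not stated in the labels or methods. Values are log2 expression made by RMA, in which the arrays are brought to nearly the same distribution. A value below log2 6 was not shown to be above background. With 1 array per genotype there was no replicate spread and no test, so every difference describes these arrays. A difference over 1 on the log2 scale (2-fold) was counted, with differences over 2 (4-fold), the size used in the study, given beside it.

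The 4 arrays were close to each other, with Pearson's r over all probe sets of 0.988 to 0.993 and medians of 5.51 to 5.54. *Ets2* itself was at 8.14 to 8.35 over the arrays on its brightest probe set. Its place relative to the deleted part is not stated in the labels or methods, so the value does not check the genotype labels. Fibroblast markers were above background on every array. *Vim*, the intermediate filament of mesenchymal cells, was at 13.97 to 14.06, and none of 10 fibroblast markers was below log2 6 on any array. The lowest value among them was 6.71, that of *Lum* in the normal *Ets2* null array. Of 12 epithelial markers, 2 were below log2 6 in the normal *Ets2* null array and 2 in the tumor array with *Ets2*, against 6 in each of the others. The log2 of the summed epithelial marker level was 10.34 for the normal array with *Ets2*, 11.79 for the normal *Ets2* null array, 11.50 for the tumor array with *Ets2* and 9.82 for the tumor *Ets2* null array. For 15 leukocyte markers the same sum was 13.27, 12.97, 14.14 and 12.91 in that order. In cultures measured in bulk, fewer cells of a type and less RNA per cell cannot be told apart.

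Integrins are receptors made of an alpha and a beta chain that link the matrix outside the cell to the actin skeleton inside it. Laminins are trimers of an alpha, a beta and a gamma chain that form the sheet of the basement membrane, and nidogens join that sheet to the type IV collagen network. In the mammary gland the basement membrane separates the epithelium from the stroma. Epithelial cells are tied to it by alpha6 integrins and by the laminin that holds the *Lama3* and *Lamb3* chains. Leukocytes carry integrins of their own, built on the beta2 chain encoded by *Itgb2*, which bind ligands such as ICAM on other cells.

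The promoters of *Itgam*, *Itga5*, *Itga8* and *Lamb3* are shown. These members were picked because they were over 2-fold lower without *Ets2* in tumor fibroblasts and had a promoter entry. Their orders over all arrays were not the same. The deleted gene encodes an ETS factor, so sequence words read by ETS factors were searched for. Whether such words bear on the differences was not tested. Each run is 300 bases from RefSeq (GRCm38.p6), from 250 bases before to 50 after a transcript start, 5′ to 3′ on the strand of the gene. Capitals mark GAGGAA or its reverse complement TTCCTC, a word read by ETS factors of the PU.1 type. CCGGAA, a word of other ETS factors, was also searched for on both strands. It does not occur in these windows. Which of these words the ETS2 protein itself reads was not examined here.
Itgam, chr7:128062390-128062689, + strand: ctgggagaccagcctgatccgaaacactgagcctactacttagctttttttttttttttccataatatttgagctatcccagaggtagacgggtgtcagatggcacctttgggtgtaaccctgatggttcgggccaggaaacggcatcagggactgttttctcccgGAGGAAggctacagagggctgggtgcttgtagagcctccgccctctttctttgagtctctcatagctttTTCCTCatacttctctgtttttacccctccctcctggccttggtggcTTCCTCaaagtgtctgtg
Itga5, chr15:103366742-103367041, − strand: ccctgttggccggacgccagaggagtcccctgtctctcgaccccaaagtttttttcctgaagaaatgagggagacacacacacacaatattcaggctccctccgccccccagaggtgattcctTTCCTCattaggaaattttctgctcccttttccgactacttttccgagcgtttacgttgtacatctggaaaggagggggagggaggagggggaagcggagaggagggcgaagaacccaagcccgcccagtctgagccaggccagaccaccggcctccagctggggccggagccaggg
Itga8, chr2:12301895-12302194, − strand: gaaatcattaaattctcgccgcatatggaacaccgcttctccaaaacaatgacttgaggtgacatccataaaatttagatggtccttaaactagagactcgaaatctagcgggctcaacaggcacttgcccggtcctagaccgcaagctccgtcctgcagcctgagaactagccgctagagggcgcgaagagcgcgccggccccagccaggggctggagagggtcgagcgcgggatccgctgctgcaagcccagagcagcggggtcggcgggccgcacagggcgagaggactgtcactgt
Lamb3, chr1:193301744-193302043, + strand: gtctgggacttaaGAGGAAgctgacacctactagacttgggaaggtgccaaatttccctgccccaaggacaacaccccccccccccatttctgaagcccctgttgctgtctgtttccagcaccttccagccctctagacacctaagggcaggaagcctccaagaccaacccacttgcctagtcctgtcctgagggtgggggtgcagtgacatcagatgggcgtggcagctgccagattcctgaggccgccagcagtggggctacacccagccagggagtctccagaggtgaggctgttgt

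The *Itgam* window holds 3 such words, the *Itga5* and *Lamb3* windows 1 each and the *Itga8* window none. A second *Lamb3* window, for another start, holds none either. Promoters were listed for 24 of the 36 genes, in 27 windows. GAGGAA occurred in 15 of the 27 (55.6%) and in 28.3% of all 32851 windows of that length, and CCGGAA in 3 of the 27 (11.1%) and in 14.9% of all. These are matches of letters and not sites of binding. The 2 other members that were over 2-fold lower without *Ets2* in tumor fibroblasts, *Itgb2* and *Itga6*, had no entry.

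Of the 35 members, 25 stayed within 2-fold in all 4 comparisons, and 17 of them stayed within 0.5 on the log2 scale. The other 10 passed 2-fold in at least 1 comparison. How many of all genes did so in at least 1 of the 4, or stayed within 2-fold or 0.5 in all 4, was not counted. These counts of members therefore have no share of all genes beside them. In any single comparison and direction, at most 1.74% of all genes passed 2-fold, which is not the counterpart of a count over all 4. A total of 21 members were at log2 6 or more on every array, 6 were below it on every array, and 8 lay on both sides. The array that stood lowest was most often that of *ErbB2* tumor *Ets2* null fibroblasts, which had the lowest value of 20 members (57.1%), against 23.7% of all genes.

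**Figure D1:**
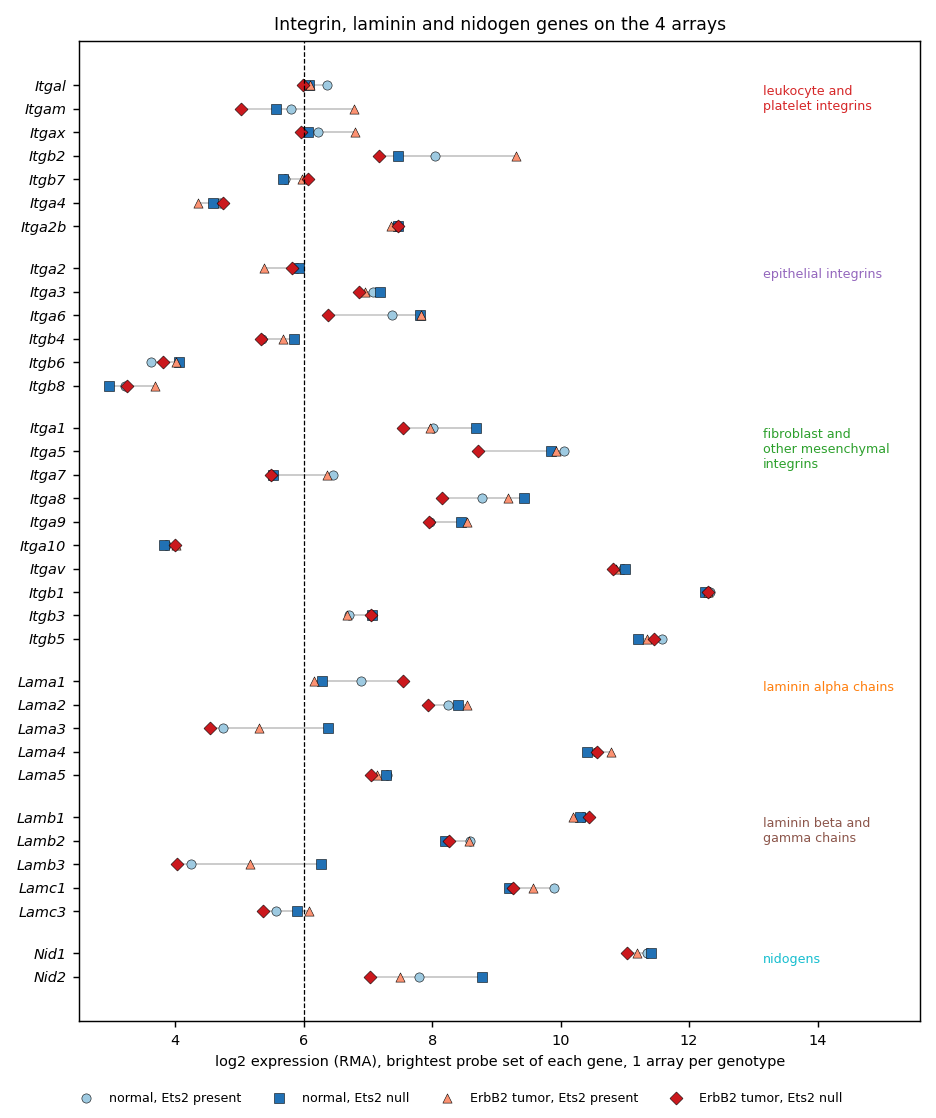
Log2 expression (x axis) of each measured member on the 4 arrays, 1 point per array, grouped by class, with a dashed line at log2 6. Levels of different genes come from different probe sets and are not comparable. The tumor array with *Ets2* (triangles) stands apart for *Itgb2*, at 9.31, and the tumor *Ets2* null array (diamonds) is the lowest for 20 of the 35 genes.

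In *ErbB2* tumor fibroblasts, members of all 3 integrin classes were lower without *Ets2*. *Itgb2*, *Itgam*, *Itga6*, *Itga5*, *Lamb3* and *Itga8* were lower by over 2-fold in the array without *Ets2*, and *Lama1* was more than 2-fold higher. The 6 lower members are 17.1% of those measured, beside 1.74% of all genes. The 1 higher member is 2.86%, beside 0.341% of all genes. *Itgb2* alone passed 4-fold, in a comparison where 0.324% of all genes were that much lower. Of the 35 members, 27 were below 0 and 8 above, and their median difference was -0.31, beside 0.04 for all genes.

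Among the leukocyte integrins, only the beta2 chain and its myeloid partner *Itgam* passed 2-fold in tumor fibroblasts. *Itgax* was highest in the same array as these. The log2 value of *Itgb2* was 8.04 in the normal array with *Ets2*, 7.46 in the normal *Ets2* null array, 9.31 in the tumor array with *Ets2* and 7.16 in the tumor *Ets2* null array. The tumor array with *Ets2* was thus the high one, and the tumor difference was -2.14, or 4.41-fold. *Itgam*, the alpha chain that pairs with it on macrophages and neutrophils, was at 5.81, 5.56, 6.79 and 5.02 in the same order. Its difference of -1.76 starts from the single value above log2 6, so the fold is not exact. *Itgax*, the alpha chain of dendritic cells and some macrophages, was at 6.21, 6.06, 6.80 and 5.96, short of 2-fold at -0.84. *Itgal*, the alpha chain of lymphocytes, ranged from 5.99 to 6.36 and differed by -0.11.

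The other members of this class showed no such pattern. *Itga4*, which pairs with beta1 or beta7 and binds VCAM, stayed below log2 6 on all arrays, between 4.35 and 4.74. *Itgb7*, its partner on gut-homing lymphocytes, ranged from 5.67 to 6.07. The platelet chain *Itga2b* lay between 7.36 and 7.46, and of 3 platelet markers 1 was over 2-fold lower in the tumor *Ets2* null array, *Pf4*, a chemokine, at -2.67, while *Gp9*, a platelet receptor subunit, differed by -0.14. All 15 leukocyte markers were lower in the tumor *Ets2* null array, where 8038 of all 18194 genes were below 0. Of the 15, 7 were lower by more than 2-fold, and the median was -0.98. *Ptprc*, the surface phosphatase of all leukocytes, was at 5.56, 5.75, 6.91 and 5.58 in the same order, and *Tyrobp*, a signaling adaptor of myeloid cells, at 9.01, 8.70, 10.27 and 8.04. Not every leukocyte marker followed *Itgb2* over the arrays. *C1qa*, a complement chain, was at 8.38, 6.61, 9.49 and 8.99, and *Cd14* and *Cd52* differed by only -0.10 and -0.11 in tumor fibroblasts. The part of the leukocyte markers in the integrin differences was not tested.

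Of the epithelial integrins, *Itga6* differed most in tumor fibroblasts. This alpha chain of laminin receptors, which anchors epithelial cells to the basement membrane, was at 7.37, 7.80, 7.82 and 6.38 in that order of arrays. It was 2.71-fold lower in the tumor *Ets2* null array, which was the low one of the 4. *Itgb4*, its partner in hemidesmosomes, ranged from 5.34 to 5.85, below log2 6 throughout, and differed by -0.34. *Itga3*, the alpha chain of another laminin receptor, was at 6.86 to 7.19 and differed by -0.10. *Itga2*, a collagen receptor chain, was below log2 6 on every array and differed by 0.43. The beta chains *Itgb6* and *Itgb8*, which activate latent TGF-beta with alphav, were also below log2 6, with highest values of 4.06 and 3.68. All 12 epithelial markers were lower in the tumor *Ets2* null array too, 8 of them by more than 2-fold, with a median of -1.89. Endothelial cells express *Itga6* as well, and the 8 endothelial markers had a median of -0.49, with 1 over 2-fold lower. Their part in the value of *Itga6* was not tested.

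Of the 10 fibroblast and mesenchymal integrins, *Itga5* and *Itga8* were over 2-fold lower without *Ets2* in tumor fibroblasts, and the other 8 did not pass 2-fold. *Itga5*, the alpha chain of the fibronectin receptor, was at 10.05, 9.84, 9.93 and 8.71 on the 4 arrays, again in that order. The tumor *Ets2* null array was the low one, 2.33-fold below its counterpart. *Itga8*, a receptor chain for nephronectin and fibronectin on mesenchymal cells, was at 8.77, 9.43, 9.18 and 8.15 in that order, and its tumor difference of -1.03 lies at the edge of 2-fold. Among those short of 2-fold, *Itga9*, a receptor chain for tenascin and VCAM, differed by -0.58 and *Itga1*, a collagen receptor chain of stromal cells, by -0.42. *Itga7*, the laminin receptor chain of muscle, was at 6.45, 5.52, 6.36 and 5.49. It was lower without *Ets2* in both comparisons, at -0.92 and -0.87, each short of 2-fold and each ending below log2 6. All 8 skeletal muscle markers were also lower without *Ets2* in both, with medians of -0.54 in normal and -1.38 in tumor fibroblasts. Of these 8, 6 were below log2 6 in the normal *Ets2* null array and 7 in the tumor *Ets2* null array. In each array with *Ets2*, 3 were below it. Whether these markers bear on *Itga7* was not tested.

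The shared beta chains stayed within 2-fold in every comparison. *Itgb1*, which pairs with most alpha chains, was at 12.32, 12.25, 12.29 and 12.29, a span under 0.1. *Itgav*, the alpha chain of vitronectin receptors, differed by 0.03 in normal and by -0.04 in tumor fibroblasts. Of its beta partners, *Itgb5* lay between 11.20 and 11.58 and *Itgb3* between 6.67 and 7.06, with differences of 0.36 in normal and 0.37 in tumor fibroblasts. *Itga10*, a collagen receptor chain of cartilage, was below log2 6 on every array. The median of the 10 measured fibroblast and mesenchymal integrins was -0.23 in tumor fibroblasts, with 2 over 2-fold lower. Beside them the 10 fibroblast markers had a median of -0.16, with 1 over 2-fold lower, *Lum*, a collagen-binding proteoglycan, at -1.03. In normal fibroblasts the same markers had a median of -0.44 without *Ets2*, with 2 over 2-fold lower, *Col3a1* at -1.13 and *Lum* at -1.06.

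**Figure D2:**
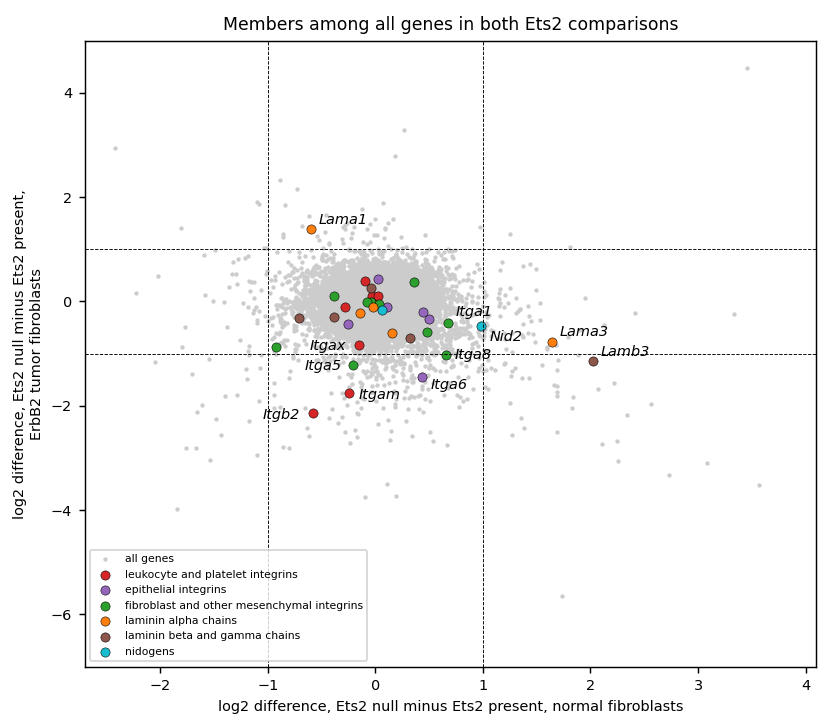
Log2 difference, *Ets2* null minus *Ets2* present, with the normal pair of arrays on the x axis and the *ErbB2* tumor pair on the y axis, with members colored by class, all genes in grey and dashed lines at 2-fold. *Lamb3* lies at the lower right, at 2.03 and -1.15, *Itgb2* lowest of the members, at -2.14 on the y axis, and *Lama1* highest of them, at 1.39.

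The laminin chains of tumor fibroblasts went both ways. *Lama1*, an alpha chain best known from embryonic basement membranes, was at 6.88, 6.29, 6.15 and 7.54 in the order used above. It was 2.62-fold higher in the tumor *Ets2* null array, the high one of the 4. *Lamb3*, the beta chain of the laminin of hemidesmosomes, was at 4.24, 6.27, 5.17 and 4.02, so its tumor difference of -1.15 lies wholly below log2 6. *Lama3*, the alpha chain of the same laminin, was at 4.74, 6.38, 5.31 and 4.54, with a tumor difference of -0.77. *Lamc3* differed by -0.71 and ended below log2 6. *Lama2*, the alpha chain of muscle and nerve laminin that is also made by fibroblasts, was at 7.93 to 8.54 and differed by -0.61.

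The chains of the vessel and general stromal laminins hardly differed in tumor fibroblasts. *Lama4*, the alpha chain of vessel walls, was at 10.78 with and 10.56 without *Ets2*. *Lamb1*, the beta chain of many laminins, was at 10.19 and 10.44, *Lamb2*, a beta chain of kidney and nerve-muscle basement membranes, at 8.57 and 8.26 and *Lamc1*, the gamma chain of most laminins, at 9.57 and 9.26. *Lama5*, found in most adult basement membranes, differed by -0.10. The nidogens were at 11.19 and 11.03 for *Nid1* and 7.50 and 7.02 for *Nid2*.

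In normal fibroblasts, the laminin chains of hemidesmosomes were higher without *Ets2*. *Lamb3* differed by 2.03 and *Lama3* by 1.64. Both rose from below log2 6 to 6.27 and 6.38, so the folds are not exact. These 2 genes are 5.71% of the members, beside 0.621% of all genes over 2-fold higher, and *Lamb3* passed 4-fold as 0.0824% of all genes did. No member was over 2-fold lower, against 0.357% of all genes. Of the 35 members, 17 were above 0 and 18 below, with a median of -0.02 beside -0.003 for all genes.

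*Nid2*, at 7.79 and 8.77, was just short of 2-fold at 0.98. Among the integrins *Itga1* and *Itga8* were highest in the normal *Ets2* null array, with differences of 0.68 and 0.66, and *Itgb2* was at -0.58. *Lamc1* differed by -0.71 and *Lama1* by -0.59. Of the 6 epithelial integrins, 5 were above 0, as were 8980 of all 18194 genes. Their median was 0.27, with a highest difference of 0.50 for *Itgb4* and one of 0.03 for *Itga2*. Values of *Itga2*, *Itgb4*, *Itgb6* and *Itgb8* were below log2 6 on every array. Of 12 epithelial markers, 8 were more than 2-fold higher in this array, with a median of 1.53. Among them were *Krt5* and *Krt14*, keratins of basal cells, by 1.68 and 2.73. The keratins *Krt8* and *Krt18* differed more, by 3.09 and 3.57. *Epcam*, on the brightest of its 2 probe sets, was the 1 marker below 0, at -0.31. The probe sets of *Epcam* disagreed, since the study lists another one as over 4-fold higher in this same comparison. Whether these markers bear on *Lama3* and *Lamb3* was not tested. In the order used above, *Krt5* was at 6.59, 8.28, 7.21 and 6.38 and *Krt14* at 5.54, 8.27, 8.26 and 4.93.

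Compared between tumor and normal fibroblasts, the members differed little with *Ets2* and more without it. These comparisons use the same arrays as those above. With *Ets2*, *Itgb2* alone passed 2-fold, 2.40-fold higher in tumor fibroblasts, and *Itgam* was just short of it at 0.98. This is 1 of 35 members (2.86%), beside 0.83% of all genes. None was over 2-fold lower, beside 0.17% of all genes. The leukocyte markers were higher as well, in 14 of 15 cases, with 7 over 2-fold and a median of 0.88, and their part in the value of *Itgb2* was not tested.

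Without *Ets2*, 7 members were more than 2-fold lower in tumor fibroblasts, 20.0% of those measured beside 1.51% of all genes. They were *Lamb3* at -2.24, *Lama3* at -1.85, *Nid2* at -1.74, *Itga6* at -1.42, *Itga8* at -1.28, *Itga5* at -1.13 and *Itga1* at -1.13. *Lamb3* was the member past 4-fold, where 0.22% of all genes were lower. *Nid2*, which was above log2 6 throughout, was 3.35-fold lower. *Lama1* was the member over 2-fold higher, at 1.25, beside 0.544% of all genes. For *Itgb2* the difference was -0.30 and for *Itgam* -0.54, where with *Ets2* they had been 1.27 and 0.98. Of 15 leukocyte markers, 7 were above 0 in this comparison and 8 below, with a median of -0.03, and 2 were over 2-fold higher. Epithelial markers were lower, 10 of 12 by more than 2-fold, with a median of -1.93. The part of either list in the values was not tested.

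The values thus fell into a few orders over the arrays. For *Itgb2*, *Itgam* and *Itgax* the tumor array with *Ets2* was high and the other 3 lay closer together, within 0.88, 0.78 and 0.25 of each other. *Itga5* and *Itga6* were low in the tumor *Ets2* null array, with the other 3 within 0.21 and 0.45. *Lama1* was high in that array. *Lama3*, *Lamb3*, *Nid2*, *Itga1* and *Itga8* were highest in the normal *Ets2* null array and lowest in the tumor *Ets2* null array. Of the members, only *Lamb3* passed 2-fold in both *Ets2* comparisons.

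Where a gene had several probe sets, they gave a check on the measurement within the same arrays. There were 75 probe sets, and 20 members had more than 1. All 4 probe sets of *Itga5* were lower in the tumor *Ets2* null array, from -1.39 to -1.12. Both of *Itga6* were lower, by -1.44 and -1.78, and both of *Itga8*, by -1.03 and -1.19. *Itgb2*, *Itgam*, *Lama1*, *Lamb3* and *Nid2* had 1 probe set each, so their values have no such check.

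Some probe sets of a gene disagreed. *Lama3* differed by 1.64 in normal fibroblasts on its brightest probe set and by 0.10 on its other, which stayed below log2 6. *Nid1* was steady on its brightest probe sets, at 0.06 and 0.10, while its dimmest, with a highest value of 5.66, differed by 1.64 in normal and by -0.62 in tumor fibroblasts. A dimmer probe set of *Itga5* was at 6.43 in the normal array with *Ets2* and at 7.91 in the normal *Ets2* null array, a difference of 1.48 against -0.21 on the brightest. *Itga3* differed by 0.11 on its brightest probe set and by 0.99 and 0.70 on the others. Where these probe sets lie in the transcripts was not analysed here.

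**Figure D3:**
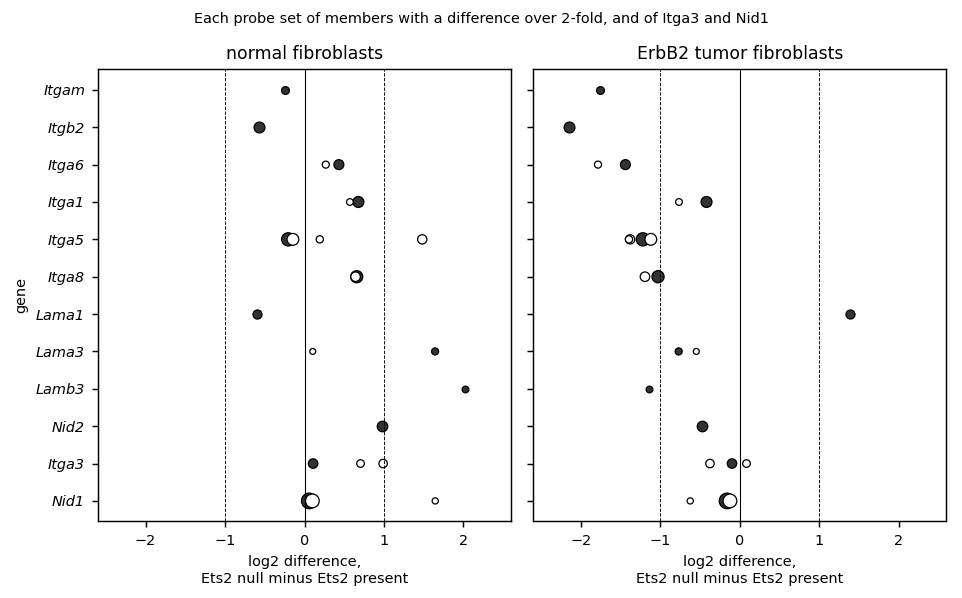
Log2 difference, *Ets2* null minus *Ets2* present (x axes), of every probe set of the 10 members over 2-fold in any comparison and of *Itga3* and *Nid1*, in normal and *ErbB2* tumor fibroblasts. Each circle is a probe set, larger where its mean level is higher, filled for the brightest of a gene, and dashed lines mark 2-fold. The 4 probe sets of *Itga5* lie between -1.39 and -1.12 in tumor fibroblasts and spread from -0.21 to 1.48 in normal fibroblasts.

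Genes of the proteins that join integrins to actin were mostly lower in the tumor *Ets2* null array. Of 21 measured adaptor and signaling genes, 19 were below 0 in tumor fibroblasts without *Ets2*, with a median of -0.58, and 3 were more than 2-fold lower. Of all 18194 genes, 8038 were below 0 in that comparison and 1.74% over 2-fold lower. The median of the 23 measured integrins was -0.21, with 5 over 2-fold lower. *Lims2*, a partner of integrin-linked kinase, was at 9.54, 10.22, 10.36 and 8.70 in the order used above, lowest in the tumor *Ets2* null array. *Fermt3*, the kindlin of blood cells that activates beta2 integrins, was at 6.66, 6.83, 8.11 and 6.68, high in the array in which *Itgb2* was high. *Tln1*, talin, which binds the beta chain tails, was at 10.88 and 9.81 in tumor fibroblasts. *Vcl*, *Fermt2* and *Zyx*, proteins of focal adhesions, differed by -0.98, -0.96 and -0.77, short of 2-fold. In normal fibroblasts none of the 21 passed 2-fold, and the median was 0.00.

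Ligands and other basement membrane genes went in several directions. Of 17 measured, 2 were over 2-fold lower and 1 higher in tumor fibroblasts without *Ets2*, with a median of -0.24. *Ntn4*, a netrin that binds laminin, differed by -2.50 and *Tnc*, tenascin and a ligand of alpha9 integrin, by -1.10. *Vcam1*, a ligand of alpha4 and alpha9 integrins, was higher, at 8.74, 7.88, 7.82 and 9.11 in the order above, with the high and low arrays of *Lama1*. *Npnt*, nephronectin, the ligand of alpha8 integrin, was at 9.10, 10.52, 9.10 and 8.50, and like *Itga8* was highest in the normal *Ets2* null array and lowest in the tumor *Ets2* null array. It was the 1 ligand over 2-fold higher in normal fibroblasts without *Ets2*, at 1.42. *Fn1*, fibronectin, the ligand of alpha5 integrin, was at 13.67, 13.47, 13.55 and 13.86. *Icam1*, a ligand of the beta2 integrins, was at 6.84, 6.09, 6.75 and 5.85. The type IV collagen chains *Col4a1* and *Col4a2*, which nidogens join to laminin, differed by -0.91 and -0.75 in tumor fibroblasts, and the heparan sulfate proteoglycan *Hspg2* by -0.54.

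**Figure D4:**
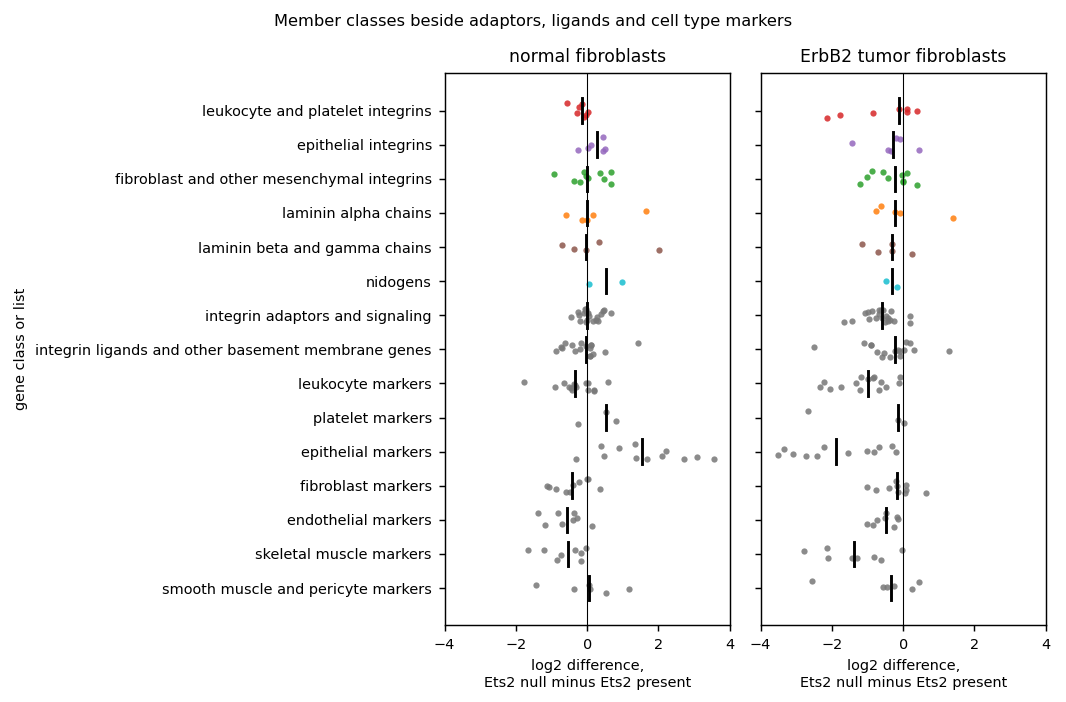
Log2 difference, *Ets2* null minus *Ets2* present (x axes), of each gene in the member classes (colored) and in lists of adaptors, ligands and cell type markers (grey), with a black bar at each median, in normal and *ErbB2* tumor fibroblasts. Epithelial markers have medians of 1.53 and -1.89, leukocyte markers -0.33 and -0.98, and the adaptors 0.00 and -0.58.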

How the data were processed

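RNA from 4 cultures was hybridised to Affymetrix mouse genome arrays. The authors deposited log2 values made by RMA, named in the submitters' processing notes, with no software version stated. Because RMA equalises the arrays, it hides a shift common to most genes. The platform annotation gave exactly 1 symbol for 34958 of 45101 probe sets, several for 932 and none here for 9211. Probe sets with 1 symbol were used, the brightest by mean for each gene. Differences were taken with pandas 2.3.3 and numpy 2.4.6 under Python 3.11.15, and matplotlib 3.10.9 drew the figures. With 1 array per group no test was possible. The counting step was tested on simulated data. The number of arrays limits the precision.

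The members and all lists were chosen with earlier results of these data known. All members are named, with genes of the other lists that passed 2-fold, marker genes, and adaptors and ligands picked after their values were seen. Alternatives were a 4-fold threshold, median centring, quantile normalization, loess correction (statsmodels 0.14.6, span 0.4), a mean of log2 6 or more, leaving out probe sets that end in _x_at or _s_at, and averaging probe sets.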

Additional observations from a re-analysis of the deposited data

Results flagged for a closer look

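*Lamb3*, a laminin chain of hemidesmosomes, was over 2-fold higher without *Ets2* in normal fibroblasts and over 2-fold lower without it in *ErbB2* tumor fibroblasts. Its log2 difference was 2.03 in the former and -1.15 in the latter, and the second minus the first is -3.17. It rests on 1 probe set and 4 arrays, with 1 value above log2 6, and the difference between the comparisons was not tested.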

How the results depend on the processing

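No paired analysis was possible because each group has 1 array. Under median centring and quantile normalization all 8 counts of members over 2-fold stayed within 1.5 times, and no member over 2-fold changed its sign under any of the 6 alternatives to the values. At 4-fold the counts without *Ets2* were 1 higher in normal fibroblasts and 0 higher and 1 lower in tumor fibroblasts. Tumor against normal they were 0 higher with *Ets2*, and 0 higher and 1 lower without it. With a mean of log2 6 or more, which left 23 members, 0 were over 2-fold higher without *Ets2* in normal fibroblasts, since *Lama3* and *Lamb3* dropped out. With probe sets averaged 1 was, *Lama3* falling to 0.87. With loess correction 3 were over 2-fold higher without *Ets2* in normal fibroblasts, and 2 were higher in tumor than in normal fibroblasts with *Ets2*, *Itgam* reaching 1.01. *Itga8* in tumor fibroblasts without *Ets2* was at -0.94 under quantile normalization and -0.99 under loess correction. Without probe sets ending in _x_at or _s_at, *Itga5* differed by -0.79 and *Itga3* by -1.20 between tumor and normal *Ets2* null fibroblasts. *Itga1* there was just short of 2-fold with probe sets averaged. Values below log2 6 limit *Lamb3*, *Lama3* and *Itgam*.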
